A study of Mus musculus with 6 samples.

Results

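The core circadian clock genes *Clock*, *Arntl* (which encodes BMAL1), *Per1*, *Per2*, *Per3*, *Cry1*, *Cry2*, *Dbp*, *Tef* and *Nfil3* were followed in mouse neural stem cells (NSCs). They were chosen by gene name and are 10 of the 53379 genes in the table. NSCs, the dividing cells that give rise to neurons and glia, came from the cortex of E14.5 embryos whose *Tbl1xr1* alleles were both floxed (*Tbl1xr1* flox/flox) and were grown with the mitogens EGF and bFGF. The 3 control libraries (replicates 1, 1_1 and 2) came from cells given a lentivirus with GFP only, and the 3 libraries labelled Cre (replicates 2, 2_2 and 3), here Cre 2, Cre 2_2 and Cre 3, from cells given Cre-GFP, the recombinase that deletes floxed DNA. GFP+ cells were sorted in both groups. Neither the embryo nor the culture behind each replicate name, nor the hour of harvest, nor any treatment that aligns the clocks of a culture is given in the sources used here. The p-values below therefore measure only the spread between these libraries, and the phase of the clock in each of them is unknown.

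The clock is a feedback loop of transcription. CLOCK and BMAL1 bind together at E-box elements and switch on the *Per* and *Cry* genes, whose proteins return to the nucleus and hold that pair in check. In an interlocked loop, ROR receptors activate and REV-ERB receptors repress genes with ROR elements (ROREs), among them *Arntl* and *Nfil3*, and REV-ERB does so through the corepressors NCoR and HDAC3. TBL1XR1 is a WD40-repeat subunit of the NCoR complex. A further arm acts at D-box elements, which the activators DBP, TEF and HLF share with the repressor NFIL3. Because REV-ERB represses through NCoR, the comparison asks how the transcripts of the clock stood in the Cre-labelled libraries.

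*Tbl1xr1* itself, the gene targeted by Cre, had normalized counts of 2522, 2189.8 and 2721 in control 1, 1_1 and 2 and of 3774, 3463 and 2905 in Cre 2, 2_2 and 3. Its mRNA level was thus not lower in any Cre-labelled library, and the log2 fold change was 0.45 (SE 0.14, adjusted p = 0.060, or 0.040 with DESeq2). The floxed part of the gene is exon V, and counts are given per gene and not per exon. These counts therefore do not measure the deletion itself, and the groups are named here by their labels. The paper describes its own checks of the deletion in sorted cells, which are not reported here. Every direction below rests on those labels and would turn if the columns had been exchanged. A normalized count is the number of reads on a gene divided by the size factor of its library. Depth ran from 7510615 to 14828100 reads on genes, and each Cre-labelled library was deeper than each control library. All 10 stem cell markers were tested and 1 passed the test (*Nes*, lower, log2 fold change -0.85). Of the 10, 6 had higher and 4 lower estimates, with a median log2 fold change of 0.14. Of the markers of other cells, 3 of 6 tested for astrocytes (of 7 listed) and 3 of 6 tested for the oligodendrocyte lineage (of 8 listed) passed as higher. The summed astrocyte markers ranged from 3111 to 3411 in control and from 5590.2 to 6568 in the Cre-labelled libraries. *S100b* (238 ± 14.7 and 2064 ± 407, SD, n = 3 each) carried much of that sum, and *Aldh1l1* was lower without overlap and did not pass (17.3 ± 2.34 and 5.35 ± 3.30, adjusted p = 0.065). The summed oligodendrocyte lineage markers ranged from 12488 to 14404 and from 17236 to 19639. None of the 6 tested neuronal markers passed and *Stmn2* had no read. Of the microglia markers, *Cx3cr1* and *Aif1* had at most 3 reads in any library and *P2ry12* had 2 to 8, while *Csf1r* had 105 to 307 and did not pass. Of the markers of vessels and mesenchyme, *Cldn5* and *Pdgfrb* had no read and *Pecam1* had 2 to 7 per library. *Col1a1* had 9 and 7 reads in Cre 2_2 and Cre 3 and none in the other libraries. The 6 markers of cycling cells had lower estimates in the Cre-labelled libraries, and 1 passed (*Mcm5*, log2 fold change -0.84). *Ccnb1* and *Cdk1* overlapped between the groups, and *Ccnb1* in Cre 2 (904) was above every control library (at most 798). The sum of the 6 ranged from 25454 to 27473 in control and from 19896 to 22584 in the Cre-labelled libraries. *Top2a* (17399 ± 555 and 14632 ± 1487, SD, n = 3 each) carried most of that sum. In bulk libraries fewer cells of a type and less RNA per cell cannot be told apart, and the part of these shifts and of depth in the clock values was not tested.

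*Tef* was the only core clock gene whose difference passed the test, and it was higher in the Cre-labelled libraries by a factor of 1.33. The other 9 members did not pass. *Per1* was lower in every Cre-labelled library than in any control library, while *Per3* was higher, and *Per2* was higher on average with groups that overlapped. *Cry2* was lower without overlap, by a smaller amount, and *Clock*, *Arntl*, *Cry1*, *Dbp* and *Nfil3* overlapped between the groups. The test was limma on log2(normalized count + 1), with p-values adjusted by the method of Benjamini and Hochberg over the 14840 genes tested and a threshold of 0.05, and every fold change below is on that log2 scale, as Cre minus control. Over all those genes 9.96% passed, 4.74% as higher and 5.22% as lower, so that 1 of 10 members stood near the share of all genes. With edgeR 0 members passed and with DESeq2 1 did, where 1483 and 1755 of the 14840 genes passed. At an unadjusted p under 0.05 the members numbered 4 (*Per1*, *Per2*, *Per3* and *Tef*), where 25.5% of all genes reached it. The groups did not overlap for 4 members, 2 higher (*Per3* and *Tef*) and 2 lower (*Per1* and *Cry2*), where 30.3% of all genes did not overlap, 14.7% as higher and 15.5% as lower. The estimate was at least 0.4 on the log2 scale in either direction for 5 members and for 32.8% of all genes. That cut lies just under the estimates of *Tef* (0.407) and *Per3* (0.412), so the count of members depends on it. The median log2 fold change was 0.19 over the members and -0.0010 over all genes, and the median absolute value 0.34 over the members and 0.26 over all genes.

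**Figure D1:**
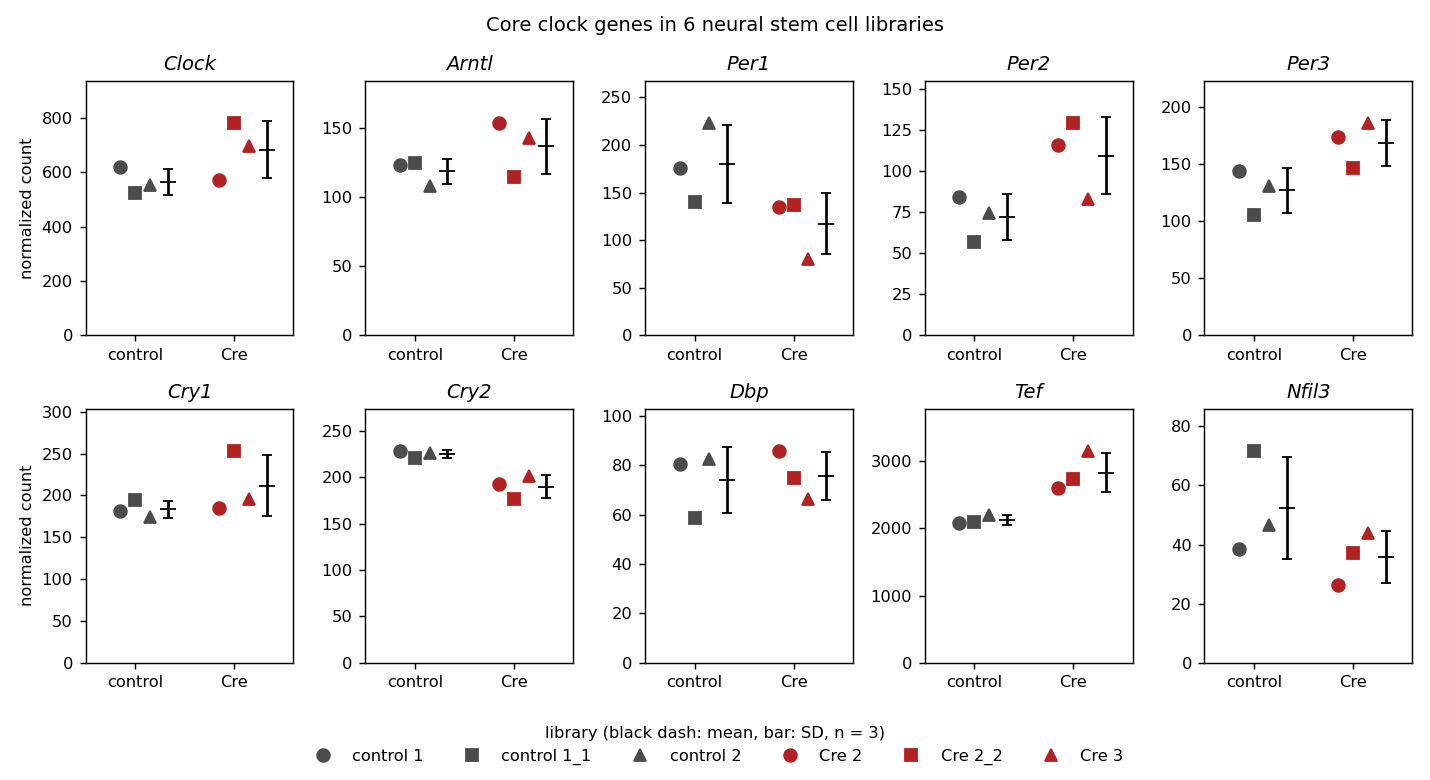
Normalized count (vertical axis, from 0, a separate scale for each gene) of the 10 core clock genes in the 6 libraries, grey for control and red for the Cre-labelled libraries, with a dash for the mean and a bar for the SD of 3 libraries. *Tef* lies between 2080.4 and 2205 in control and between 2599.8 and 3153 in the Cre-labelled libraries, whereas the points of *Dbp* overlap between the groups.

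Among the activators, *Clock* encodes the histone acetyltransferase partner of BMAL1 (ENSMUSG00000029238) and lies at chr5:76209868-76305603 (this and the other gene coordinates are from RefSeq on GRCm38, the mm10 build). Its normalized counts were 618, 522 and 555 in control 1, 1_1 and 2 and 571, 780.0 and 697 in Cre 2, 2_2 and 3. Cre 2 lay between 2 control libraries, so the groups overlapped although the group means were 565 ± 48.5 and 683 ± 105 (SD, n = 3 each). The log2 fold change was 0.26 (SE 0.14, 95% interval -0.053 to 0.58, adjusted p = 0.29). *Arntl* (ENSMUSG00000055116, chr7:113178471-113314126), the gene of BMAL1 and a known target of REV-ERB, had 123, 124 and 108 in control and 153, 114 and 142 in the Cre-labelled libraries. Again 1 Cre-labelled library, 2_2, lay within the control range. The log2 fold change of *Arntl* was 0.20 (SE 0.19, interval -0.21 to 0.60, adjusted p = 0.56). *Clock* shares bases with a pseudogene and a long noncoding RNA gene, and *Arntl* with a long noncoding RNA gene. The use of strand in counting is not given in the sources used here, so reads of such overlapping genes may not have been told apart. Of the partners that can replace them, *Npas2* had at most 4 reads in a library and was not tested, and the other listed partner did not pass.

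The *Per* genes encode the PERIOD proteins, the limiting parts of the repressor complex. *Per1* (ENSMUSG00000020893, chr11:69095108-69109965) had normalized counts of 176, 140.4 and 223 in control 1, 1_1 and 2 and of 134, 137 and 80.6 in Cre 2, 2_2 and 3. The highest Cre value, 137, lay just under the lowest control value, 140.4, so the groups were separate by a narrow margin. Group means were 179.8 ± 41.3 and 117 ± 31.8 (SD, n = 3 each), with a log2 fold change of -0.63 (SE 0.25, interval -1.17 to -0.087, adjusted p = 0.14). The spread exceeded counting error, with a coefficient of variation of 23.0% in control and 27.1% in the Cre-labelled libraries where the reads alone would give 8.28% in each. Cre 3 was far below its group, and without it the log2 fold change was -0.38.

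*Per2* (ENSMUSG00000055866, chr1:91415977-91459351) differed in the opposite direction from its paralog. Its normalized counts were 84.4, 57.0 and 74.7 in control 1, 1_1 and 2 and 116, 129 and 83.3 in Cre 2, 2_2 and 3. Only Cre 3 reached into the control range, where it lay just below control 1. Group means were 72.1 ± 13.9 and 109 ± 23.6 (SD, n = 3 each), with a log2 fold change of 0.59 (SE 0.24, interval 0.065 to 1.11, adjusted p = 0.15). *Per2* rested on 39 to 167 reads per library, and it overlaps a long noncoding RNA gene. *Per3* (ENSMUSG00000028957, chr4:150997018-151044707), which is held to be less needed for rhythms than the other two, had 144, 105 and 131 in control and 173, 146 and 185 in the Cre-labelled libraries. Its groups did not overlap, although control 1 and Cre 2_2 nearly met. Its log2 fold change was 0.41 (SE 0.19, interval 0.000515 to 0.82, adjusted p = 0.20). *Per3* shares 4714 bases with *Uts2*, the gene of a neuropeptide. In none of the 16 other settings tried did a *Per* gene pass, and none changed direction, with log2 fold changes between -0.79 and -0.38 for *Per1*, 0.43 and 0.77 for *Per2* and 0.29 and 0.51 for *Per3*.

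Setting the paralogs against each other within a library removes the scaling between libraries. *Per2* reads over *Per1* reads came to 0.479, 0.406 and 0.335 in control 1, 1_1 and 2 and to 0.861, 0.943 and 1.03 in Cre 2, 2_2 and 3. The mean ratio was 0.407 ± 0.0719 in control and 0.946 ± 0.0863 in the Cre-labelled libraries (SD, n = 3 each), so the ratio was separate between the groups although *Per2* alone was not. *Per3* over *Per1* was 0.818, 0.750 and 0.587 in control and 1.29, 1.07 and 2.30 in the Cre-labelled libraries. These ratios were chosen after the values were seen and were not tested.

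**Figure D2:**
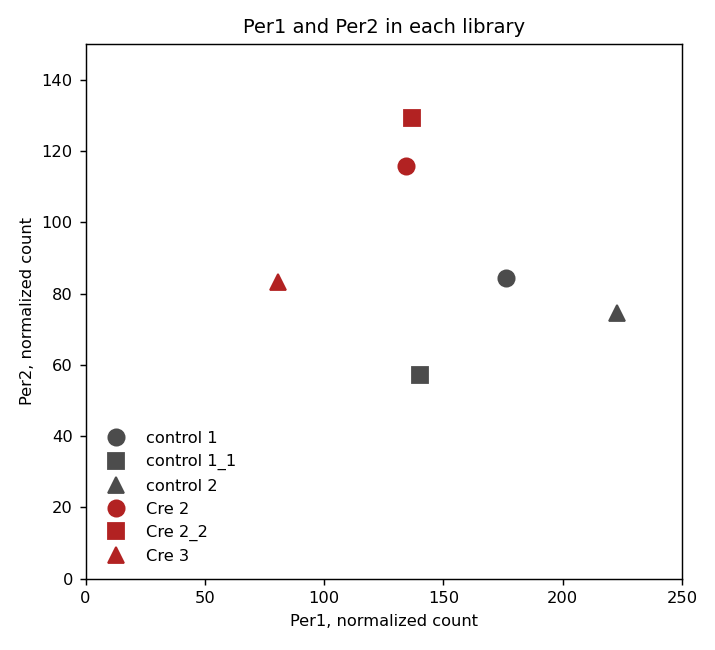
Normalized count of *Per2* (vertical axis) against that of *Per1* (horizontal axis), both from 0, with 1 point for each of the 6 libraries, grey for control and red for the Cre-labelled libraries. The red points lie to the left of the grey points on the *Per1* axis (137 against 140.4 at the closest), and the *Per2* value of Cre 3 (83.3) is under that of control 1 (84.4).

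The promoters of *Per1* and *Per3* are shown because they carry different elements of the loop in the window that RefSeq gives on GRCm38.p6, from 250 bases before to 50 bases after a start site. In these windows, on both strands, the E-box CACGTG, its variant CACGTT, the D-box TTATGTAA or TTACGTAA, the RORE core AGGTCA and the cAMP response element TGACGTCA were searched. They occur in 7.15%, 4.68%, 1.06%, 16.3% and 1.79% of all 32851 windows. In the sequences below, 5′ to 3′ along the gene, capitals mark the matches. The first of 2 *Per1* windows (chr11:69098699-69098998, plus strand) has an E-box 166 bases before the start and, on the opposite strand, a RORE core 137 bases before it. The second *Per1* window (chr11:69099902-69100201, plus strand), which is not shown, has no match. *Per3* (chr4:151044616-151044915, minus strand) has D-boxes 205 and 158 bases before the start.
Per1: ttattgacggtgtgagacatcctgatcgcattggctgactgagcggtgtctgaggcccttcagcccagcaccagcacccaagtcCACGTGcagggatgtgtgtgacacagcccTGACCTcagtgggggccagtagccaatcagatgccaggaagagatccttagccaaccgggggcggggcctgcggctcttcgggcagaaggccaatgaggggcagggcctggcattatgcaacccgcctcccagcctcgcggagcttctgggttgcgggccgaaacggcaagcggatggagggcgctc
Per3: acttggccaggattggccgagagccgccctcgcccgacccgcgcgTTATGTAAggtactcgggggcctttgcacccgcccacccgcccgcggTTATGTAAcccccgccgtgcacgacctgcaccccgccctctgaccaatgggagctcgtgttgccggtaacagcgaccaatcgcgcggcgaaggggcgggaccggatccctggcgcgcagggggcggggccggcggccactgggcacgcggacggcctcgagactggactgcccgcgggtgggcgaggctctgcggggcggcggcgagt
A match is a description of letters and not a bound site, and it was not set against the values of the genes. For *Per2* there was no window.

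**Figure D3:**
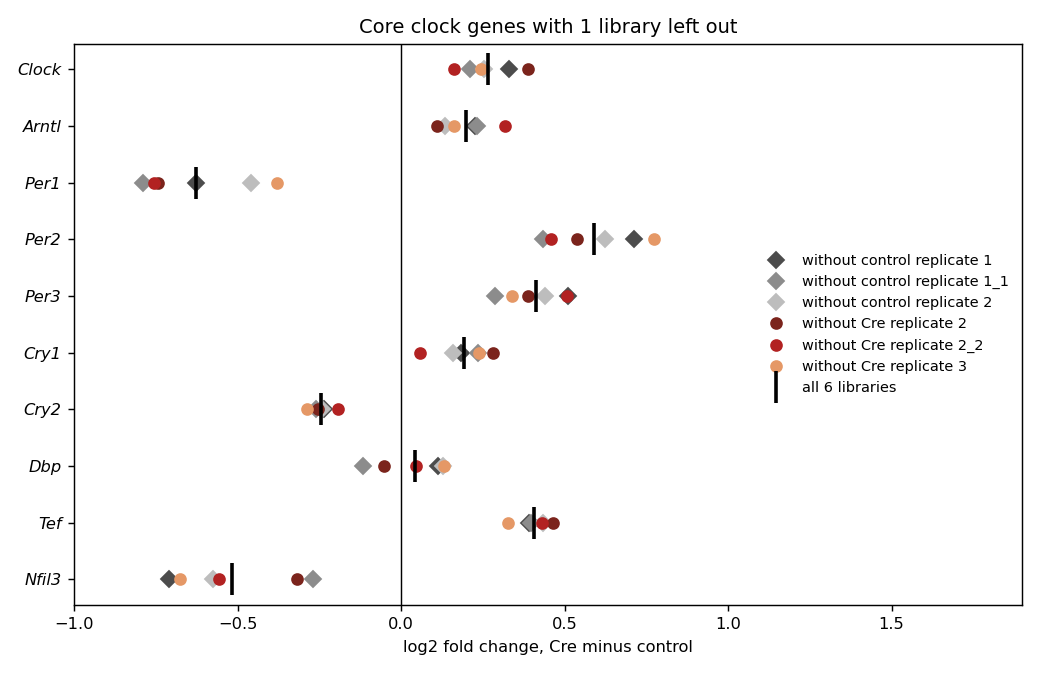
Log2 fold change (horizontal axis, Cre minus control) of the 10 core clock genes with each of the 6 libraries left out in turn, grey diamonds for a control library and red or orange circles for a Cre-labelled library, with a black line for all 6 libraries. *Per1* stays between -0.79 and -0.38 and *Per2* between 0.43 and 0.77, whereas *Dbp* lies on both sides of 0.

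The CRYPTOCHROME proteins, made from *Cry1* and *Cry2*, are the repressors that act on CLOCK and BMAL1 directly. *Cry1* (ENSMUSG00000020038, chr10:85131700-85185054) had 181, 195 and 175 in control 1, 1_1 and 2 and 185, 253 and 196 in Cre 2, 2_2 and 3. Apart from Cre 2_2, the Cre-labelled libraries stood within or just above the control range, and the log2 fold change was 0.19 (SE 0.17, interval -0.18 to 0.56, adjusted p = 0.52). *Cry2* (ENSMUSG00000068742, chr2:92403646-92434085) had 229, 221 and 227 in control and 193, 176 and 201 in the Cre-labelled libraries, which were all below control. The control libraries were close together, with a coefficient of variation of 1.77% where counting error alone would give 7.40%. Group means were 225 ± 3.99 and 190.2 ± 12.7 (SD, n = 3 each), with a log2 fold change of -0.25 (SE 0.15, interval -0.57 to 0.078, adjusted p = 0.33). Thus the groups of *Cry2* did not overlap but its difference did not pass, and it shares 23417 bases with a long noncoding RNA gene. The *Cry1* window (chr10:85185005-85185304, minus strand) holds a variant E-box on the opposite strand 79 bases and an E-box 60 bases before the start, and the *Cry2* window holds a variant E-box 166 bases before it.
Cry1: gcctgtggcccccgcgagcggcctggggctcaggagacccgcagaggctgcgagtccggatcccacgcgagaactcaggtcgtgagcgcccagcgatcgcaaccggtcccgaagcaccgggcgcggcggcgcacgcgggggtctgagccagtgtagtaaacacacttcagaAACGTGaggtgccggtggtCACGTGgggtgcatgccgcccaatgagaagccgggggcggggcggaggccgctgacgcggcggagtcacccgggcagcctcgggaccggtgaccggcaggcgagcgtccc

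In the D-box arm, *Tef* (ENSMUSG00000022389, chr15:81802673-81826863) encodes an activator of the PAR bZIP family. It had normalized counts of 2080.4, 2093 and 2205 in control 1, 1_1 and 2 and of 2599.8, 2732 and 3153 in Cre 2, 2_2 and 3. Every Cre-labelled library lay above every control library, and Cre 3 was the highest. Group means were 2126 ± 68.2 and 2828 ± 289 (SD, n = 3 each), with a log2 fold change of 0.41 (SE 0.12, interval 0.15 to 0.66, adjusted p = 0.049). With adjusted p just under the threshold, the call held in 7 of 16 other settings and not in the other 9. Over all 16 the direction did not change and the log2 fold change ranged from 0.33 to 0.47. The adjusted p was 0.037 with DESeq2 and 0.0502 with edgeR. Without control 1, 1_1 or 2 it was 0.19, 0.14 or 0.12, without Cre 2_2 or Cre 3 it was 0.12 or 0.097, and without Cre 2 it was 0.017. No other RefSeq gene overlaps *Tef*. Of the 11134 other genes that averaged 50 or more normalized counts, those whose log2 values followed *Tef* most closely over the 6 libraries were *Atp9a* (Pearson r = 0.996), *Cdk19* (0.994) and *Smarca2* (0.994), and 166 genes had r over 0.95. Both start sites of *Tef* are shown, since each has an E-box, 127 bases before the first (chr15:81802423-81802722, plus strand) and 138 bases before the second (chr15:81811164-81811463, plus strand). Which of the 2 start sites the reads came from was not measured.
Tef first start: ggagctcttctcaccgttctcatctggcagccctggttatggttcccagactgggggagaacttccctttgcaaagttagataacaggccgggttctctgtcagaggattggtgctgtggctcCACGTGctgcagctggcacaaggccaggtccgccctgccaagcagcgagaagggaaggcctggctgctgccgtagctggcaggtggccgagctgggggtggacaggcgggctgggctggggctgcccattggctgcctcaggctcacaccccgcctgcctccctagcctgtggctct
Tef second start: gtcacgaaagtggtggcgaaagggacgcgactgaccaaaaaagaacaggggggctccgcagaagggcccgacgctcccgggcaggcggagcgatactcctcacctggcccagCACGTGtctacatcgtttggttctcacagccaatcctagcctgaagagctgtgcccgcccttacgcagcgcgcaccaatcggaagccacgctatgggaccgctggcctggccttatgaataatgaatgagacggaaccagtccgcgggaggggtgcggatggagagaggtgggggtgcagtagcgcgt

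*Dbp* (ENSMUSG00000059824, chr7:45705100-45710203) is often used as a direct readout of CLOCK and BMAL1, since its rhythm is among the strongest of the loop. Here it had 80.8, 58.5 and 82.7 in control 1, 1_1 and 2 and 85.9, 74.9 and 66.3 in Cre 2, 2_2 and 3, so the groups overlapped, with Cre 2 highest and control 1_1 lowest of the 6 libraries. Group means were 74.0 ± 13.4 and 75.7 ± 9.83 (SD, n = 3 each), and the log2 fold change was 0.041 (SE 0.23, interval -0.46 to 0.54, adjusted p = 0.93), with a sign that changed in 4 of 16 other settings. *Dbp* shares 741 bases with *Sphk2*, a sphingosine kinase gene. *Nfil3* (ENSMUSG00000056749, chr13:52967209-52982878), the repressor at D-boxes and a known target of REV-ERB, had 38.5, 71.7 and 46.7 in control and 26.3, 37.0 and 43.9 in the Cre-labelled libraries. It was the member with the fewest reads, 35 to 49 per library, and control 1_1 stood well above the rest. Its log2 fold change was -0.52 (SE 0.31, interval -1.21 to 0.17, adjusted p = 0.33), and without control 1_1 it was -0.27. The *Nfil3* window (chr13:52980990-52981289, minus strand) is shown for its RORE core, which lies on the opposite strand 12 bases before the start.
Nfil3: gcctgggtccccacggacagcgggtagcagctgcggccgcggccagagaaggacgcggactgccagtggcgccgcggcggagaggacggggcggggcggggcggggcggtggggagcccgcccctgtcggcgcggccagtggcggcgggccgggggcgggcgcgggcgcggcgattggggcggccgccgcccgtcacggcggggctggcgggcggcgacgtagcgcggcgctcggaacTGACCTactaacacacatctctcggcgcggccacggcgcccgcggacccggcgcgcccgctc
The ratio of *Tef* to *Nfil3* reads, also chosen after the values were seen and not tested, was 54.0, 29.2 and 47.2 in control and 98.8, 73.8 and 71.9 in the Cre-labelled libraries. *Hlf*, the remaining PAR bZIP gene, had 711, 729.9 and 709 in control and 903, 649 and 792 in the Cre-labelled libraries, and did not pass (log2 fold change 0.11, SE 0.14, adjusted p = 0.67).

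Grouped by the element through which they are known to be driven, the members differed in sign. Of the 4 known targets of REV-ERB among them (*Arntl*, *Clock*, *Cry1* and *Nfil3*), 3 had a higher and 1 a lower mean in the log2 fit, and 0 passed with limma, edgeR or DESeq2 or reached an unadjusted p under 0.05. Of the 7 known E-box genes (the *Per* and *Cry* genes, *Dbp* and *Tef*), 5 were higher and 2 lower. With limma 1 of these 7 passed, where 9.96% of all genes did, and 0 passed with edgeR and 1 with DESeq2. An unadjusted p under 0.05 was reached by 4 of the 7, where 25.5% of all genes reached it. Intervals limit what could have been missed. For 7 of the 10 members the interval of the difference lay within a 2-fold change in either direction, and for *Per1*, *Per2* and *Nfil3* it reached 2-fold. No library was the outlying member of its group throughout, although control 1_1 was the lowest control library for 6 and the highest for 3 of the 10 genes.

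Compared per length, as normalized counts for each 1000 bases of exon (all exons of a gene merged, from the GENCODE M1 annotation), the members spanned a 21.9-fold range in control. *Tef* was the most abundant at 270.3 ± 8.68 (SD, n = 3), 4.23 times the next gene. *Clock* (64.0 ± 5.49) and *Cry1* (60.8 ± 3.37) followed with ranges that overlapped, then *Arntl* (40.5 ± 3.09) and *Cry2* (35.7 ± 0.631), each apart from the gene above it. *Per1* (31.9 ± 7.33), *Nfil3* (25.8 ± 8.52) and *Dbp* (25.1 ± 4.56) each overlapped the gene above. *Per3* (13.2 ± 2.05) and *Per2* (12.3 ± 2.38) were lowest, lay apart from *Dbp* and overlapped each other. In the Cre-labelled libraries the first 5 places were the same, with *Tef* at 359.6 ± 36.7 (SD, n = 3), and the lower 5 (*Dbp*, *Per1*, *Per2*, *Nfil3* and *Per3*) each overlapped their neighbours, between 25.7 ± 3.34 and 17.5 ± 2.08.

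**Figure D4:**
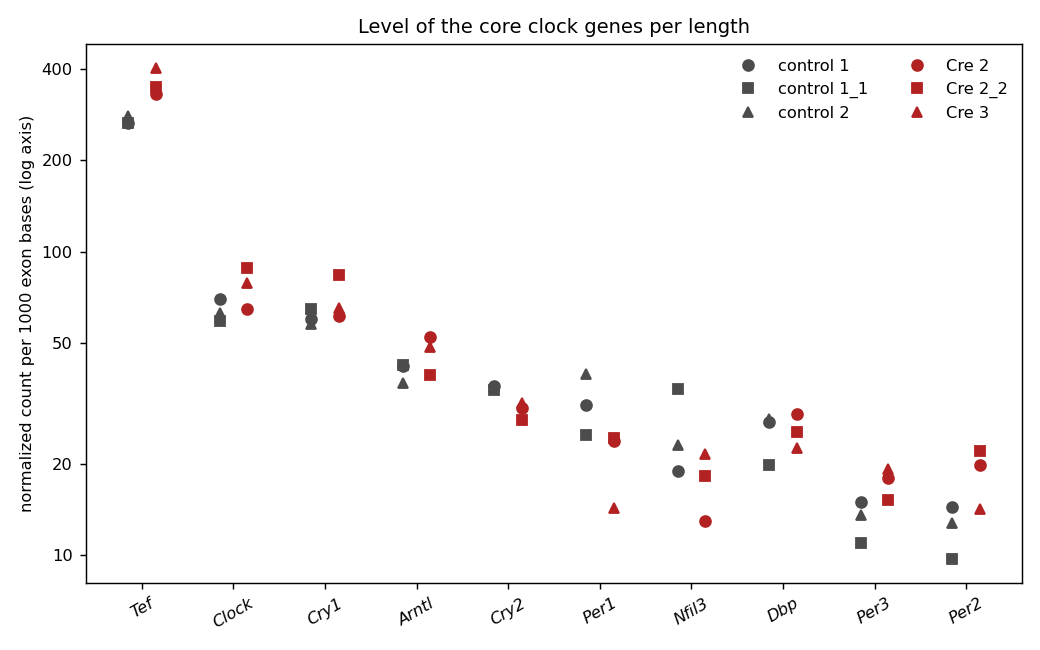
Level of each core clock gene as normalized count per 1000 exon bases (vertical axis, log scale) in the 6 libraries, ordered by the control mean, grey for control and red for the Cre-labelled libraries. *Tef* stands apart at 265 to 401, and from *Cry2* to *Per2* the points of neighbouring genes lie close together.

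Around the core genes, 52 further genes of the clock were listed by role, and 47 had enough reads to test. Of these, 3 passed as higher and 1 as lower (30 had higher and 17 lower estimates), with a median log2 fold change of 0.058. The 4 of 47 that passed with limma stand beside the 9.96% of all genes that passed. With edgeR 4 passed and with DESeq2 6, where 1483 and 1755 of the 14840 genes did. *Rora*, the receptor that activates RORE genes, rose from 635, 669.96 and 641 in control to 1087, 1180.3 and 1349 in the Cre-labelled libraries (log2 fold change 0.89, SE 0.12, adjusted p = 0.0015). Its call held in all 16 other settings, and it overlaps 5 long noncoding RNA genes. *Timeless*, whose mammalian product works mainly at the replication fork, fell from 657 ± 13.8 to 392 ± 15.9 (SD, n = 3 each), by 0.74 on the log2 scale (SE 0.12, adjusted p = 0.0035), and passed in all 16 other settings. It shares 1001 bases with a long noncoding RNA gene. The estimates of the markers of cycling cells given above were also lower, with 1 passing. The part of any change in cycling cells in the *Timeless* level was not tested.

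*Egr1*, an immediate early gene of the signals that also induce *Per1*, rose from between 1201 and 1290.3 to 4469, 3456 and 1403 (log2 fold change 1.15, SE 0.32, adjusted p = 0.045). Cre 3 was only slightly above control, the adjusted p without control 1, 1_1 or 2 was 0.13, 0.13 and 0.14, and without Cre 2_2 it was 0.18.

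The REV-ERB genes themselves, which are E-box targets, stood above control without passing. *Nr1d1* (REV-ERB alpha) had 262, 255 and 299 in control 1, 1_1 and 2 and 436, 364 and 345 in Cre 2, 2_2 and 3, without overlap (log2 fold change 0.49, SE 0.15, interval 0.16 to 0.81, adjusted p = 0.062). It shares 1075 bases with *Thra*, the thyroid hormone receptor gene, and without Cre 3 it passed, with an adjusted p of 0.0496. *Nr1d2* (REV-ERB beta) had 318, 260.4 and 323 in control and 422, 441 and 352 in the Cre-labelled libraries (log2 fold change 0.43, SE 0.15, adjusted p = 0.10). *Rorb*, a receptor of the same family as *Rora*, was lower without overlap, at 1471 ± 126 and 1145 ± 117 (SD, n = 3 each, log2 fold change -0.36, SE 0.13, adjusted p = 0.094). All 4 tested receptors of this loop, 3 higher and 1 lower, reached an unadjusted p under 0.05, as did 25.5% of all genes, and only *Rora* passed after adjustment.

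Among the repressors of E-box genes, *Bhlhe41* had 59.6, 93.6 and 61.3 in control and 112, 139 and 103 in the Cre-labelled libraries, without overlap (log2 fold change 0.74, SE 0.24, adjusted p = 0.072). Its paralog *Bhlhe40* (0.16, adjusted p = 0.55) and *Ciart* (-0.11, adjusted p = 0.86) overlapped. In the corepressor, *Ncor1* (log2 fold change 0.032, SE 0.12, adjusted p = 0.90) and *Hdac3* (-0.046, SE 0.17, adjusted p = 0.89) were close between the groups, and *Tbl1x*, the paralog of *Tbl1xr1*, was higher without overlap and did not pass (0.32, SE 0.11, adjusted p = 0.085). None of the 8 kinases and phosphatases of PER and CRY, 6 partners of the PER complex and 6 tested clock output genes passed with limma. At an unadjusted p under 0.05 there were 2, 2 and 1 of them, where 25.5% of all genes reached it. With edgeR none of them passed and with DESeq2 1 did, *Nampt*, a NAD synthesis gene named after its values were seen. Its log2 fold change was -0.59 (adjusted p = 0.052 with limma and 0.038 with DESeq2).

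**Figure D5:**
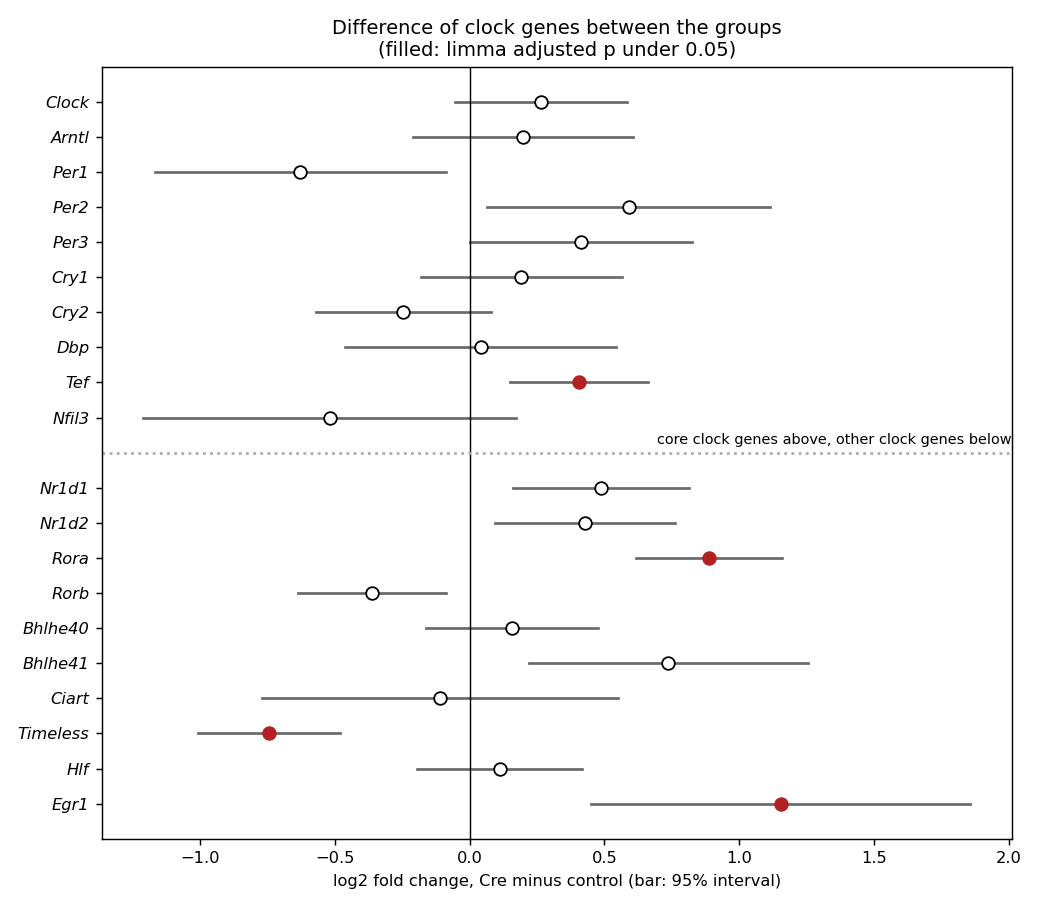
Log2 fold change (horizontal axis, Cre minus control) of the 10 core clock genes and of 10 named clock genes beside them, with bars for the 95% interval and filled points for limma adjusted p under 0.05. Of the core genes only *Tef* is filled, at 0.41, and below the dotted line *Rora*, *Timeless* and *Egr1* are filled.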

How the data were processed

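RNA-seq of 6 NSC libraries was analysed, 3 control and 3 labelled Cre, grouped from the sample labels. The processing notes of the labels name STAR 2.7, DESeq2 and mm10, and the study's methods name TopHat with mm9 and mm10. The read counter, the use of strand and the annotation are not given in the sources used here. The authors deposited a signal per gene and library, the normalized count, which is the read count divided by a DESeq2 size factor. The deposited table also holds the authors' mean, log2 fold changes, their errors and test statistics (a score per gene) and p-values, none of which was used. Of 53379 genes, 873 have no name and 1 with a missing value was left out. No per-sample column was left unused.

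The worth of 1 read was found from the lowest values of each library. With it 100% of values came out as whole reads, to within 9.91e-05 of a whole number. Totals of 7510615 to 14828100 reads per library limit the precision, and members had 35 to 3754 reads. The main test was limma 3.58.1 (lmFit, eBayes with trend, R 4.3.3) on log2(normalized count + 1), restricted to the 14840 genes that averaged 10 or more, with Benjamini-Hochberg adjustment. On simulated data with 200 of 14840 genes changed 2-fold between these groups, limma recovered 60.0%, edgeR 61.5% and DESeq2 66.0%, with 1.64%, 2.38% and 6.38% false calls. In the real data 9.96% of genes passed, and the estimates of the members were all smaller than 2-fold. These shares therefore do not give the power to detect the differences of the members. Alternatives were edgeR 4.0.16 (quasi-likelihood test, TMM) and DESeq2 1.42.0 on recovered reads, pseudocounts of 0.5 and 5, no filter or a mean of at least 50, TMM or total scaling, averaging replicates 1 and 1_1 or 2 and 2_2, leaving out each library, and a threshold of 0.1. With TMM and total scaling the median log2 fold change of all genes was 0.00031 and 0.0053, beside -0.0010 in the main fit.

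The members and the lists of other clock genes and markers were chosen with earlier results of these data known. All members were named, and of the other clock genes those that passed and a fixed set of receptors, repressors and corepressor parts (some of these genes are counted but not reported by name here), with the 3 genes most correlated with each member that passed. *Nampt* and the markers were named after their values were seen. Gene coordinates and promoters are from RefSeq (GRCm38.p6), in which 9 of 10 members had a promoter window, 14 in all.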

Additional observations from a re-analysis of the deposited data

How the results depend on the processing

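Under 16 other settings, no core clock gene other than *Tef* passed, and 9 of the 10 members did not change direction. The count of core clock genes that passed, 1, was 0 with edgeR, with no filter on low values, with scaling to the total count and with control libraries 1 and 1_1 averaged, and from 0 to 1 with a library left out. *Dbp* reversed to -0.012 with control 1 and 1_1 averaged and to -0.0026 with Cre 2 and 2_2 averaged, and ranged from -0.12 to 0.13 with a library left out. The count of other clock genes that passed, 4, was 2 with control 1 and 1_1 averaged and from 2 to 6 with a library left out. Where it was 2 these were *Rora* and *Timeless*. At an adjusted p under 0.1 it was 11, but the share of all genes at that threshold was not computed, so this count has no background beside it. Over all genes, the count that passed, 1478, was 660 with control 1 and 1_1 averaged, 558, 704 and 643 without control 1, 1_1 and 2, 724 without Cre 2_2 and 2396 without Cre 2, on fewer samples. The causes were not tested. *Nfil3* could not be fitted with a mean of at least 50, since its mean is lower. No paired analysis was possible because the groups share only 1 replicate number. Depth limits *Nfil3*, *Per2* and *Dbp*, with as few as 35, 39 and 40 reads in a library.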
